A study of Mus musculus with 6 samples.

Results

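The 9 genes described here, *Bcat1*, *Bcat2*, *Bckdha*, *Bckdhb*, *Bckdk*, *Dbt*, *Ivd*, *Mccc1* and *Mccc2*, encode enzymes of the first steps by which cells break down leucine, isoleucine and valine, the branched-chain amino acids. They were listed by name out of 19938 genes measured, and each had 1 probe set that named no other gene. *Bcat1* was chosen by its change against PBS in these arrays, so its values against PBS are given as a description with no test, while the other 8 genes came from the pathway around it.

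Arrays measured mRNA in T cells sorted from the spleen of NOD mice, a strain that develops autoimmune diabetes. The mice were female and 7 weeks old. All mice carried transferred BDC2.5 CD4 T cells, whose receptor recognises an antigen of pancreatic beta cells. One group received 100 ng of anti-DCIR2-BDC, an antibody to a receptor of DCIR2+ dendritic cells that carries the BDC antigen, and another received 100 ng of anti-DEC205-BDC, which takes the antigen to DEC205+ dendritic cells. The third received PBS, and no group received an antibody without antigen. After 14 h, T cells enriched by magnetic depletion were sorted as Thy1.1+CD4+ cells, and each group had 2 arrays, labelled as biological duplicates. The labels do not say how many mice gave each array.

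As background, branched-chain aminotransferases move the amino group of a branched-chain amino acid to a ketoacid acceptor, which forms glutamate, and the resulting branched-chain ketoacid is then oxidised irreversibly by a mitochondrial dehydrogenase complex. BCAT1 is the cytosolic and BCAT2 the mitochondrial aminotransferase. In mouse CD4 T cells the cytosolic enzyme is known to be induced by stimulation of the T cell receptor, and leucine is a signal that mTOR senses.

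*Bcat1* was far higher after either antibody than after PBS. Its log2 signal was 9.25 and 9.45 in the anti-DCIR2-BDC arrays, 7.85 and 8.54 in the anti-DEC205-BDC arrays, and 5.16 and 5.35 in the PBS arrays. The 3 groups did not overlap, and the anti-DEC205-BDC arrays lay between the others. Group means were 9.35 ± 0.15 for anti-DCIR2-BDC, 8.19 ± 0.49 for anti-DEC205-BDC and 5.26 ± 0.13 for PBS (SD, n = 2 each). The difference from PBS was 4.09 on the log2 scale after anti-DCIR2-BDC, or 17.0-fold, with a 95% interval from 3.55 to 4.63. After anti-DEC205-BDC it was 2.94, or 7.65-fold, with an interval from 2.40 to 3.47. Both differences use the same PBS arrays, whose *Bcat1* signals lay below the lowest array median of 5.43. No detection calls were used, so how far background signal sets these fold changes was not tested. Ordered from the highest change among the 19938 genes, *Bcat1* stood at place 3 after anti-DCIR2-BDC and at place 4 after anti-DEC205-BDC. As *Bcat1* was chosen by this change, its places and intervals against PBS are a description and no support. With each array left out in turn, the difference from PBS lay between 3.99 and 4.20 after anti-DCIR2-BDC and between 2.59 and 3.28 after anti-DEC205-BDC. In these bulk samples, more cells expressing a gene and more mRNA per cell cannot be told apart.

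**Figure D1:**
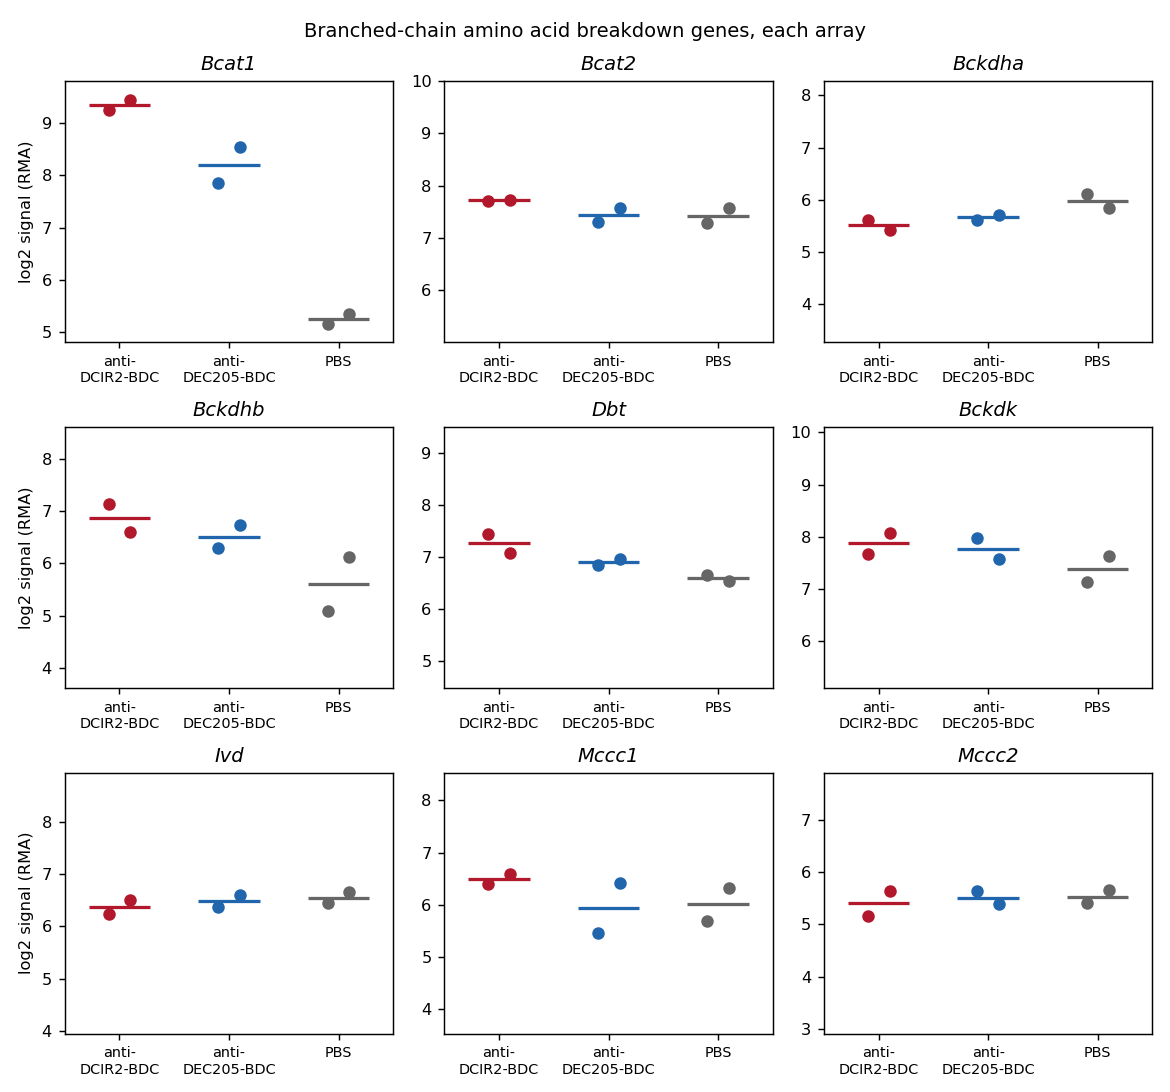
Log2 signal (RMA, vertical axis) of each of the 9 genes in the anti-DCIR2-BDC, anti-DEC205-BDC and PBS groups; points are single arrays, bars are means of 2 arrays, and every panel spans 5 log2 units. *Bcat1* shows 3 separate groups, at 9.25 and 9.45, 7.85 and 8.54, and 5.16 and 5.35, while the values of the other genes are closer together.

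Promoter windows from RefSeq starts (GRCm38.p6), 250 bases before to 50 after, were at hand for 8 of the 9 genes (*Bcat1*, *Bcat2*, *Bckdha*, *Bckdhb*, *Bckdk*, *Ivd*, *Mccc1* and *Mccc2*). Both windows of *Bcat1* are shown because this gene carried the largest change, and that of *Mccc2* because it alone held a motif searched for. All 3 lie on the minus strand, at chr6:145076108-145076407 and chr6:145048763-145049062 for *Bcat1* and at chr13:100015590-100015889 for *Mccc2*. Capitals mark CACGTG, the E-box that MYC and its partner MAX are known to bind, and the sequences run 5′ to 3′.
Bcat1 window 1: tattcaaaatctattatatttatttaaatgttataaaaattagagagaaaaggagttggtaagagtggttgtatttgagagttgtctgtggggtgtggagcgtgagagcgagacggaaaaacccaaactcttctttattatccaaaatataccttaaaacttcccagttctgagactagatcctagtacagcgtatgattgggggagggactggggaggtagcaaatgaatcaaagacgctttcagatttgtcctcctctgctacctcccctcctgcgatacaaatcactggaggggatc
Bcat1 window 2: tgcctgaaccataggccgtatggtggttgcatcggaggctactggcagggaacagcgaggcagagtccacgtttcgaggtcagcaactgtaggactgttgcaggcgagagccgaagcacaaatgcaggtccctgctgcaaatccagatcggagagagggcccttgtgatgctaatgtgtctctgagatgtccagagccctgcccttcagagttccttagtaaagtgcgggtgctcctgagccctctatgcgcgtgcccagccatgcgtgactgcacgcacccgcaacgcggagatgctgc
Mccc2 window: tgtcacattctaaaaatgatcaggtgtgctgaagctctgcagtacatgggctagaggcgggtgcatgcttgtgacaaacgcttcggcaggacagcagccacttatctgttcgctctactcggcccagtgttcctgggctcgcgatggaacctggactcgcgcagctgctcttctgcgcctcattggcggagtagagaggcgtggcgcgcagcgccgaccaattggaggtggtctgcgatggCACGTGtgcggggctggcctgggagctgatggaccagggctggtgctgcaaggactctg
CACGTG reads the same on both strands, and in the *Mccc2* window it begins at position -9 relative to the start. Of all 32851 RefSeq windows of 300 bases, 7.15% held it. The ATF4-type motif TGATGNAA, searched on both strands, was in 3.97% of all windows and in 0 windows of the 8 genes. Neither motif occurred in the *Bcat1* windows, which says only that these letters are not there. GC content was 41% in window 1 and 58.7% in window 2 of *Bcat1*, and its single probe set does not show which start was used.

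Anti-DCIR2-BDC was compared with PBS to see what T cells given antigen by DCIR2+ dendritic cells express. Of the 8 genes other than *Bcat1*, 2 rose, *Bckdhb* and *Dbt*, and 0 fell at an adjusted p under 0.05 (limma, Benjamini-Hochberg over all genes). Over all genes, 10.1% were called higher and 7.82% lower. Arrays of the groups did not overlap for 6 of the 8, beside 55.3% of all genes. The median log2 change of the 8 was 0.39, beside -0.05 over all genes.

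The mitochondrial ketoacid dehydrogenase complex holds both of the called genes. *Bckdhb*, the beta subunit of its decarboxylase, had log2 signals of 7.13 and 6.60 after anti-DCIR2-BDC, 6.29 and 6.73 after anti-DEC205-BDC, and 5.10 and 6.13 after PBS. Every antibody array lay above both PBS arrays, whose own SD was 0.73. *Bckdhb* rose 2.39-fold after anti-DCIR2-BDC, a log2 change of 1.26 with an interval from 0.55 to 1.96 (limma adjusted p = 0.0193). After anti-DEC205-BDC the change was 0.90 and did not pass (limma adjusted p = 0.126). The first call was lost without PBS array 1, at a change of 0.74 (limma adjusted p = 0.138), and without anti-DCIR2-BDC array 1, at 0.99 (limma adjusted p = 0.174). Without PBS array 2 the anti-DEC205-BDC change was 1.41 and passed (limma adjusted p = 0.0188). Over all 17 alternatives these adjusted p-values ranged from 0.00267 to 0.174 for anti-DCIR2-BDC and from 0.0188 to 0.589 for anti-DEC205-BDC.

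*Dbt*, the transacylase that forms the core of the complex, had log2 signals of 7.45 and 7.07 after anti-DCIR2-BDC, 6.85 and 6.97 after anti-DEC205-BDC, and 6.66 and 6.54 after PBS. The groups followed the same order as *Bcat1* without overlap. *Dbt* rose 1.58-fold after anti-DCIR2-BDC, a log2 change of 0.66 with an interval from 0.23 to 1.10 (limma adjusted p = 0.0410), and its change after anti-DEC205-BDC was 0.31 (limma adjusted p = 0.433). The call was lost when any 1 of the 2 PBS or 2 anti-DCIR2-BDC arrays was left out, at limma adjusted p-values from 0.0553 to 0.271, within a range of 0.0202 to 0.271 over all alternatives.

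*Bckdha*, the alpha subunit of the decarboxylase, had log2 signals of 5.61 and 5.43 after anti-DCIR2-BDC, 5.62 and 5.71 after anti-DEC205-BDC, and 6.12 and 5.85 after PBS. Both antibody groups lay below PBS without overlap, but neither change passed, at -0.46 after anti-DCIR2-BDC, with an interval from -0.83 to -0.09 (limma unadjusted p = 0.0196, adjusted p = 0.0903), and -0.32 after anti-DEC205-BDC (limma adjusted p = 0.321). *Bckdk*, the kinase that phosphorylates and switches off the complex, had signals of 7.68 and 8.08 after anti-DCIR2-BDC, 7.98 and 7.57 after anti-DEC205-BDC, and 7.14 and 7.62 after PBS. The anti-DCIR2-BDC arrays did not overlap with PBS and the anti-DEC205-BDC arrays did. Changes of *Bckdk* were 0.50 (limma adjusted p = 0.221) after anti-DCIR2-BDC and 0.40 (limma adjusted p = 0.419) after anti-DEC205-BDC, and neither passed.

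*Bcat2*, the mitochondrial aminotransferase, had log2 signals of 7.71 and 7.73 after anti-DCIR2-BDC, 7.30 and 7.58 after anti-DEC205-BDC, and 7.27 and 7.58 after PBS. The anti-DEC205-BDC and PBS values were nearly the same, and both anti-DCIR2-BDC arrays lay just above them. Its changes against PBS were 0.29 after anti-DCIR2-BDC, with an interval from -0.15 to 0.74 (limma adjusted p = 0.399), and 0.01 after anti-DEC205-BDC, with an interval from -0.43 to 0.46 (limma adjusted p = 0.983).

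Among the enzymes of the leucine branch, none passed the test in either comparison. *Ivd*, which oxidises isovaleryl-CoA, had log2 signals of 6.23 and 6.50 after anti-DCIR2-BDC, 6.36 and 6.61 after anti-DEC205-BDC, and 6.44 and 6.66 after PBS, so the groups overlapped. *Mccc1*, the biotin-carrying subunit of methylcrotonyl-CoA carboxylase, had 6.41 and 6.60 after anti-DCIR2-BDC, 5.46 and 6.41 after anti-DEC205-BDC, and 5.70 and 6.33 after PBS. The anti-DCIR2-BDC arrays of *Mccc1* lay just above PBS, and the anti-DEC205-BDC arrays overlapped with it. *Mccc2*, the other subunit of that carboxylase, had 5.16 and 5.65 after anti-DCIR2-BDC, 5.64 and 5.39 after anti-DEC205-BDC, and 5.41 and 5.66 after PBS. Changes after anti-DCIR2-BDC were -0.18 for *Ivd*, 0.49 for *Mccc1* and -0.13 for *Mccc2*, at limma adjusted p-values of 0.620, 0.345 and 0.750. After anti-DEC205-BDC they were -0.06, -0.07 and -0.02 for the same genes, at limma adjusted p-values of 0.911, 0.937 and 0.979. The signs of *Ivd* and *Mccc2* after anti-DEC205-BDC turned when each array was centred on its median.

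Anti-DEC205-BDC was compared with the same PBS arrays. Of the 8 genes, 0 passed in limma, beside 5.32% of all genes called higher and 3.53% lower, and 1 (*Bckdhb*) had an unadjusted p under 0.05. Arrays did not overlap for 3 of the 8 (*Bckdhb*, *Dbt* and *Bckdha*), beside 48.8% of all genes. The median change of the 8 was -0.0015, beside -0.03 over all genes. A 95% interval of a member reached from 0.37 to 0.71 to either side, so smaller changes could not be told from 0 with 2 arrays a group. These intervals are not adjusted for the number of genes, and larger changes could also fail to pass, as that of *Bckdhb* at 0.90 did.

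**Figure D2:**
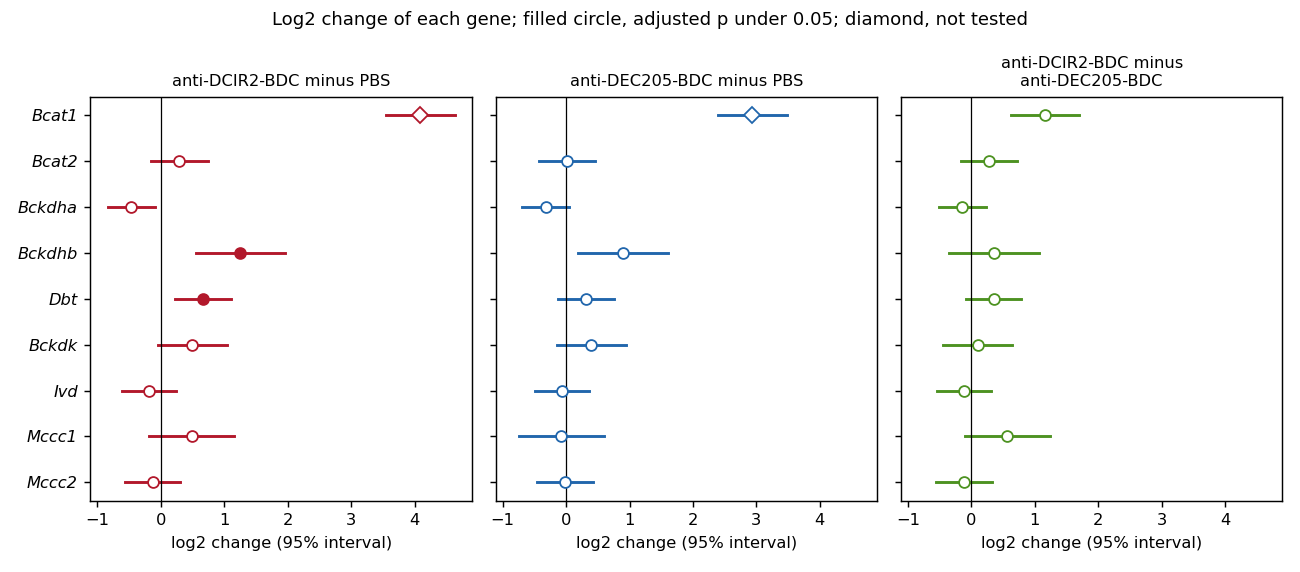
Log2 change (horizontal axis) of each gene with its 95% interval in anti-DCIR2-BDC minus PBS, anti-DEC205-BDC minus PBS and anti-DCIR2-BDC minus anti-DEC205-BDC; filled circles have an adjusted p under 0.05, open circles do not, and diamonds were not tested. *Bcat1* lies at 4.09, 2.94 and 1.16, and the filled circles are *Bckdhb* and *Dbt* after anti-DCIR2-BDC.

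The antibodies were compared with each other to ask whether the dendritic cell that receives the antigen makes a difference. *Bcat1* was 1.16 higher on the log2 scale after anti-DCIR2-BDC than after anti-DEC205-BDC, or 2.23-fold (SE 0.24, interval from 0.62 to 1.69), and both anti-DCIR2-BDC arrays lay above both anti-DEC205-BDC arrays. Its change stood at place 19 of 19938 genes, counted from the highest signed change. The unadjusted p was 0.000698, and it did not pass after adjustment (limma adjusted p = 0.180, from 0.0644 to 0.585 over 17 alternatives). As *Bcat1* was chosen by changes that used these same antibody arrays, its place and p-value here are no independent support. Of the 9 genes 0 passed in limma, 1 (*Bcat1*) had an unadjusted p under 0.05, and 0.0201% of all genes were called. Arrays did not overlap for 4 of the 9, with *Bcat1*, *Bcat2* and *Dbt* higher and *Bckdha* lower after anti-DCIR2-BDC, beside 40.2% of all genes. The largest change after that of *Bcat1* was 0.56 for *Mccc1*, with an interval from -0.11 to 1.23 (limma adjusted p = 0.569). Changes of the other 7 genes lay between -0.14 for *Bckdha* and 0.36 for *Bckdhb*.

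The later enzymes of the pathway, together with the last subunit and the phosphatase of the complex, gave 1 higher and 3 lower of 21 measured genes after anti-DCIR2-BDC, and 1 higher and 2 lower after anti-DEC205-BDC. Over all genes 10.1% were called higher and 7.82% lower after anti-DCIR2-BDC, and 5.32% higher and 3.53% lower after anti-DEC205-BDC. Median log2 changes of the 21 were -0.10 and -0.06, beside -0.05 and -0.03 over all genes. *Dld*, the dihydrolipoyl dehydrogenase that this complex shares with pyruvate dehydrogenase, had log2 signals of 7.75 and 7.93 after anti-DCIR2-BDC, 7.54 and 7.69 after anti-DEC205-BDC, and 6.88 and 6.93 after PBS. It rose by 0.94 after anti-DCIR2-BDC (limma adjusted p = 0.00530) and by 0.71 after anti-DEC205-BDC (limma adjusted p = 0.0398). *Ppm1k*, the phosphatase that reverses the action of *Bckdk*, had 5.91 and 5.79 after anti-DCIR2-BDC, 6.14 and 6.34 after anti-DEC205-BDC, and 6.89 and 6.97 after PBS. It fell by 1.08 after anti-DCIR2-BDC (limma adjusted p = 0.00160) and by 0.69 after anti-DEC205-BDC (limma adjusted p = 0.0347). For both genes the antibody arrays lay apart from PBS, with *Dld* above it and *Ppm1k* below it. The anti-DEC205-BDC calls of both were lost when any 1 of the 6 arrays was left out, at limma adjusted p-values from 0.0680 to 0.184 for *Dld*, over all alternatives 0.0174 to 0.184, and from 0.0662 to 0.172 for *Ppm1k*, over all alternatives 0.0209 to 0.172. The anti-DCIR2-BDC call of *Dld* was lost without anti-DCIR2-BDC array 2 (limma adjusted p = 0.0583, from 0.00238 to 0.0583 over all alternatives).

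Among thiolases and related enzymes of the last steps, *Acaa2*, a mitochondrial thiolase also used in fatty acid oxidation, had log2 signals of 6.69 and 6.71 after anti-DCIR2-BDC, 7.54 and 7.96 after anti-DEC205-BDC, and 7.63 and 7.95 after PBS. Only the anti-DCIR2-BDC arrays stood apart. It fell by 1.10 after anti-DCIR2-BDC (limma adjusted p = 0.00472), its change after anti-DEC205-BDC was -0.04 (limma adjusted p = 0.950), and the difference between the antibodies was -1.05 (limma adjusted p = 0.180). *Hadhb*, the beta subunit of the trifunctional protein of fatty acid oxidation, had 7.14 and 7.76 after anti-DCIR2-BDC, 6.81 and 7.55 after anti-DEC205-BDC, and 8.18 and 8.29 after PBS. It fell by 1.05 after anti-DEC205-BDC (limma adjusted p = 0.0424), and its change of -0.79 after anti-DCIR2-BDC did not pass (limma adjusted p = 0.0836). The anti-DEC205-BDC call of *Hadhb* was lost when any 1 array other than anti-DEC205-BDC array 2 was left out (limma adjusted p from 0.0525 to 0.234, and from 0.0120 to 0.234 over all alternatives). The anti-DCIR2-BDC change passed without anti-DEC205-BDC array 1 (limma adjusted p = 0.0425) or array 2 (limma adjusted p = 0.0426), with a range of 0.0245 to 0.448 over all alternatives.

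A list of 17 genes covered transport of branched-chain amino acids or glutamine, sensing of leucine, and loading of branched-chain amino acids on tRNA. Of these, 6 rose and 2 fell after anti-DCIR2-BDC, with a median change of 0.41. After anti-DEC205-BDC 7 rose and 1 fell, with a median of 0.47. The medians over all genes were -0.05 and -0.03, with 10.1% of genes higher and 7.82% lower in the first comparison and 5.32% and 3.53% in the second. With each array left out in turn, the anti-DEC205-BDC count of rises was 4 to 5, and that after anti-DCIR2-BDC was 6 each time. *Slc7a5*, the light chain of the main importer of leucine in activated T cells, had log2 signals of 10.34 and 10.85 after anti-DCIR2-BDC, 9.80 and 10.24 after anti-DEC205-BDC, and 8.16 and 7.98 after PBS. It rose by 2.52 after anti-DCIR2-BDC (limma adjusted p = 5.95e-05) and by 1.95 after anti-DEC205-BDC (limma adjusted p = 0.000781). *Slc3a2*, its heavy chain, rose by 0.87 after anti-DCIR2-BDC (limma adjusted p = 0.00540). Its change of 0.63 after anti-DEC205-BDC passed (limma adjusted p = 0.0491) but was lost when any 1 of the 6 arrays was left out (0.0537 to 0.297, and 0.0209 to 0.297 over all alternatives). *Slc1a5*, a glutamine transporter, rose by 2.04 after anti-DCIR2-BDC and by 1.76 after anti-DEC205-BDC (limma adjusted p = 8.25e-05 and 0.000772).

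The cytosolic tRNA synthetases for the 3 branched-chain amino acids all rose after either antibody. *Iars*, for isoleucine, rose by 2.11 after anti-DCIR2-BDC and by 1.39 after anti-DEC205-BDC (limma adjusted p = 3.93e-05 and 0.000883), and *Vars*, for valine, by 1.90 and 1.31 in the same comparisons (limma adjusted p = 0.000238 and 0.00515). *Lars*, for leucine, rose by 1.27 after anti-DCIR2-BDC and by 0.96 after anti-DEC205-BDC (limma adjusted p = 0.00118 and 0.0125). The second *Lars* call was lost without PBS array 1 or anti-DEC205-BDC array 2 (limma adjusted p from 0.0696 to 0.0773, and from 0.00427 to 0.0773 over all alternatives). Their mitochondrial counterparts *Iars2*, *Lars2* and *Vars2* changed by 0.18, 0.39 and 0.41 after anti-DCIR2-BDC and by -0.15, -0.01 and 0.47 after anti-DEC205-BDC, and none passed (limma adjusted p from 0.224 to 0.991). Signs of the *Iars2* changes and of the anti-DEC205-BDC change of *Lars2* turned under other settings. *Sesn1*, a sestrin of a family whose members restrain mTOR when leucine is scarce, had signals of 6.77 and 6.52 after anti-DCIR2-BDC, 7.52 and 7.06 after anti-DEC205-BDC, and 8.09 and 8.24 after PBS. It fell by 1.52 after anti-DCIR2-BDC (limma adjusted p = 0.000740) and by 0.87 after anti-DEC205-BDC (limma adjusted p = 0.0306). The second *Sesn1* call was lost when any 1 array other than anti-DEC205-BDC array 1 was left out (0.0557 to 0.196, and 0.0150 to 0.196 over all alternatives). *Sesn3*, of the same family, fell by 1.25 after anti-DCIR2-BDC (limma adjusted p = 0.00125) and changed by -0.32 after anti-DEC205-BDC (limma adjusted p = 0.398). *Sesn2*, the remaining sestrin, went the other way. Its log2 signals were 5.42 and 5.41 after anti-DCIR2-BDC, 5.48 and 5.64 after anti-DEC205-BDC, and 5.00 and 4.98 after PBS. Those after anti-DCIR2-BDC and PBS lay below the lowest array median of 5.43, and the part of background signal in *Sesn2* was not tested. It rose by 0.57 after anti-DEC205-BDC (limma adjusted p = 0.0341), and its change of 0.42 after anti-DCIR2-BDC did not pass (limma adjusted p = 0.0706). The *Sesn2* call was lost when any 1 of the 6 arrays was left out (0.0599 to 0.171, and 0.0193 to 0.171 over all alternatives).

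Of 15 measured genes of other aminotransferases and of glutamate metabolism, 6 rose and 0 fell after anti-DCIR2-BDC, and 4 rose and 0 fell after anti-DEC205-BDC, with medians of 0.21 and 0.24, beside 10.1% of all genes higher and 7.82% lower in the first comparison and 5.32% and 3.53% in the second. Without 1 array the anti-DEC205-BDC count ranged from 1 to 4. *Psat1*, the phosphoserine aminotransferase of serine synthesis, had log2 signals of 8.75 and 9.08 after anti-DCIR2-BDC, 8.13 and 8.06 after anti-DEC205-BDC, and 6.31 and 6.26 after PBS. It rose by 2.63 after anti-DCIR2-BDC and by 1.81 after anti-DEC205-BDC (limma adjusted p = 3.93e-05 and 0.000772). *Asns*, asparagine synthetase, rose by 2.01 and 1.01 in the same comparisons (limma adjusted p = 0.000108 and 0.0107). *Got1* and *Got2*, the cytosolic and mitochondrial aspartate aminotransferases, rose by 1.84 and 1.31 after anti-DCIR2-BDC (limma adjusted p = 0.000286 and 0.00213) and by 1.11 and 0.92 after anti-DEC205-BDC (limma adjusted p = 0.0116 and 0.0281). The anti-DEC205-BDC calls of *Asns* and *Got1* were lost without PBS array 1 (limma adjusted p = 0.0723 and 0.0624) or anti-DEC205-BDC array 2 (limma adjusted p = 0.0707 and 0.0753). Ranges over all alternatives were 0.00481 to 0.0776 for *Asns* and 0.00403 to 0.0771 for *Got1*. That of *Got2* was lost without PBS array 2, anti-DEC205-BDC array 2 or either anti-DCIR2-BDC array (limma adjusted p from 0.0531 to 0.179, and from 0.0106 to 0.179 over all alternatives).

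**Figure D3:**
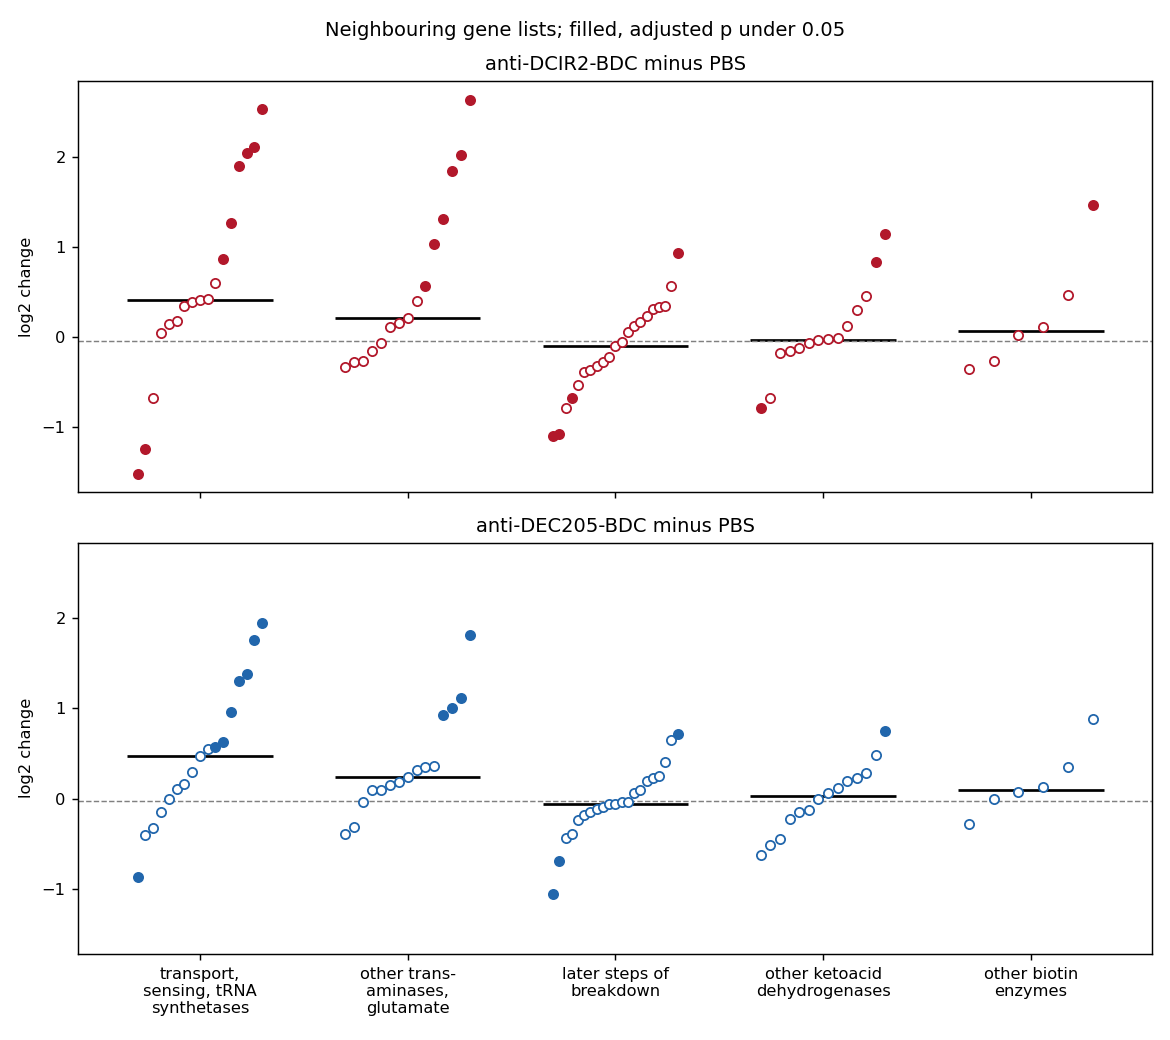
Log2 change (vertical axis) of each gene of 5 neighbouring lists in anti-DCIR2-BDC minus PBS (upper panel) and anti-DEC205-BDC minus PBS (lower panel); points are genes in order of change, filled where the adjusted p is under 0.05, black bars are list medians and the dashed line is the median of all genes. Filled points above 1 lie mostly in the transport and aminotransferase lists, and the later steps of breakdown have medians of -0.10 and -0.06.

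The related pyruvate and oxoglutarate dehydrogenase complexes and their regulators gave 2 higher and 1 lower of 14 genes after anti-DCIR2-BDC and 1 higher and 0 lower after anti-DEC205-BDC. These shares are near those over all genes, of 10.1% higher and 7.82% lower after anti-DCIR2-BDC and 5.32% and 3.53% after anti-DEC205-BDC. *Pdk3*, a pyruvate dehydrogenase kinase, rose by 1.15 and 0.75 in these comparisons (limma adjusted p = 0.00160 and 0.0305). *Pdp1*, a pyruvate dehydrogenase phosphatase, fell by 0.78 after anti-DCIR2-BDC (limma adjusted p = 0.0146), and its change of -0.62 after anti-DEC205-BDC did not pass (limma adjusted p = 0.0718). *Dlat*, the acetyltransferase core of pyruvate dehydrogenase, rose by 0.83 after anti-DCIR2-BDC (limma adjusted p = 0.0384) and changed by 0.29 after anti-DEC205-BDC (limma adjusted p = 0.587). Some calls of these 3 genes were lost with 1 array left out, while that of *Pdk3* after anti-DCIR2-BDC passed in all 17 alternatives. That of *Pdk3* after anti-DEC205-BDC was lost when any 1 PBS or anti-DEC205-BDC array was left out (limma adjusted p from 0.0568 to 0.163, and from 0.0159 to 0.163 over all alternatives). After anti-DCIR2-BDC, that of *Pdp1* was lost without PBS array 2 or either anti-DCIR2-BDC array (0.0848 to 0.0923, and 0.00755 to 0.0923 over all alternatives), and that of *Dlat* when any 1 PBS or anti-DCIR2-BDC array was left out (0.0617 to 0.183, and 0.0142 to 0.183 over all alternatives). *Pdk2*, another kinase of the family, had 5.54 and 5.60 after anti-DCIR2-BDC, 5.65 and 5.79 after anti-DEC205-BDC, and 5.56 and 6.92 after PBS. PBS array 2 stood far above the other arrays. Changes of *Pdk2* were -0.67 and -0.52 after anti-DCIR2-BDC and anti-DEC205-BDC (limma adjusted p = 0.231 and 0.449). Without PBS array 1 they were -1.35 and -1.20 and passed (limma adjusted p = 0.00217 and 0.0111), while over all alternatives the adjusted p ranged from 0.00217 to 0.993 and from 0.0111 to 0.761.

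Among the other enzymes that carry or handle biotin, as *Mccc1* does, 1 of 6 rose after anti-DCIR2-BDC and 0 passed after anti-DEC205-BDC in limma, where 1 had an unadjusted p under 0.05. Over all genes 10.1% were higher in the first comparison and 5.32% in the second. *Acaca*, the acetyl-CoA carboxylase of fatty acid synthesis, had log2 signals of 8.36 and 8.66 after anti-DCIR2-BDC, 7.61 and 8.25 after anti-DEC205-BDC, and 7.31 and 6.77 after PBS. It rose by 1.47 after anti-DCIR2-BDC (limma adjusted p = 0.00307), and its change of 0.88 after anti-DEC205-BDC did not pass (limma adjusted p = 0.0704) except without anti-DEC205-BDC array 1 and under some other settings (limma adjusted p = 0.0374 without that array, and from 0.0237 to 0.363 over all alternatives). *Slc5a6*, a biotin transporter, *Pcx*, pyruvate carboxylase, and *Hlcs*, which attaches biotin to carboxylases, changed by 0.47, -0.36 and 0.11 after anti-DCIR2-BDC and by 0.35, -0.29 and 0.12 after anti-DEC205-BDC, and none passed (limma adjusted p from 0.130 to 0.862).

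Transcription factors reported elsewhere to regulate *Bcat1* were *Myc*, *Mycn*, *Max*, *Atf4* and *Hif1a*. *Myc* had log2 signals of 12.14 and 12.19 after anti-DCIR2-BDC, 11.18 and 11.79 after anti-DEC205-BDC, and 8.86 and 9.99 after PBS, which is the same order of groups as for *Bcat1*. It rose by 2.74 after anti-DCIR2-BDC (limma adjusted p = 0.000189) and by 2.06 after anti-DEC205-BDC (limma adjusted p = 0.00280). *Hif1a*, the oxygen-regulated factor, rose by 0.94 after anti-DCIR2-BDC (limma adjusted p = 0.00952) and changed by 0.56 after anti-DEC205-BDC (limma adjusted p = 0.145). The *Hif1a* call was lost without PBS array 2 or either anti-DCIR2-BDC array (0.0565 to 0.0780, and 0.00377 to 0.0780 over all alternatives). *Atf4*, *Mycn* and *Max* changed by 0.43, 0.12 and -0.06 after anti-DCIR2-BDC and by 0.13, 0.40 and -0.09 after anti-DEC205-BDC, and none passed (limma adjusted p from 0.209 to 0.893). The sign of *Max* after anti-DCIR2-BDC turned when arrays were centred on their medians. No test related any of these factors to *Bcat1*.

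The 6 genes whose pattern over the 6 arrays was most like that of *Bcat1* were *Utf1*, *Irf4*, *Mfsd2a*, *Cdca7*, *Mrto4* and *Srm*, by the root mean square difference between log2 signals centred on each gene's mean. That difference was 0.207 for *Utf1*, 0.278 for *Irf4*, 0.321 for *Mfsd2a*, 0.347 for *Cdca7*, 0.358 for *Mrto4* and 0.432 for *Srm*. Pearson's r with *Bcat1* lay between 0.980 and 0.996, as a description over 6 arrays that share groups and controls. *Utf1* had log2 signals of 9.35 and 9.43 after anti-DCIR2-BDC, 8.0 and 8.22 after anti-DEC205-BDC, and 5.43 and 5.66 after PBS, with the anti-DEC205-BDC arrays again between the others. *Irf4*, a transcription factor induced by T cell receptor signals, had 9.78 and 10.24 after anti-DCIR2-BDC, 9.06 and 9.31 after anti-DEC205-BDC, and 6.46 and 6.51 after PBS. Among the other 8 genes of the pathway the smallest difference was 1.24, for *Bckdhb*, and the largest 1.93, for *Bckdha*. This measure also depends on the size of a gene's changes, which were smaller for these 8 genes than for *Bcat1*. Their Pearson's r with *Bcat1* ranged from -0.892 for *Bckdha* to 0.871 for *Dbt*, and was 0.851 for *Bckdhb*.

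**Figure D4:**
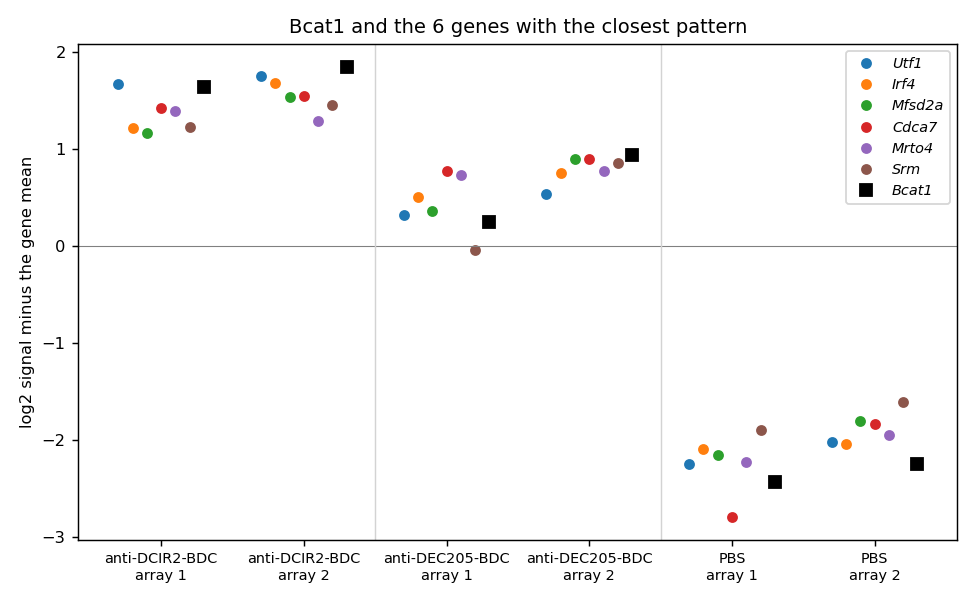
Log2 signal minus the gene's mean over 6 arrays (vertical axis) for *Bcat1* (squares) and the 6 genes nearest to it (circles) in each anti-DCIR2-BDC, anti-DEC205-BDC and PBS array. All 7 genes are highest in the anti-DCIR2-BDC arrays and lowest in the PBS arrays.

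The sorted cells had the mRNAs of CD4 T cells, but most of their T cell markers differed between groups in the opposite direction to *Bcat1*. The exception was *Cd5*, which changed by 0.04 after anti-DCIR2-BDC and by 0.20 after anti-DEC205-BDC, with arrays that overlapped with PBS. *Cd3e* and *Cd4* had log2 signals of 11.16 to 11.45 and 9.91 to 10.15 after anti-DCIR2-BDC, 11.57 to 11.71 and 10.38 to 10.43 after anti-DEC205-BDC, and 11.96 to 12.12 and 10.51 to 10.74 after PBS. Of 10 markers measured, 7 fell after anti-DCIR2-BDC, *Cd3e* and *Cd4* among them, beside 7.82% of all genes, and 1 (*Trat1*) after anti-DEC205-BDC, beside 3.53%. Their summed linear signal was 10779 to 10879, 13787 to 15102 and 18442 to 19208 in the anti-DCIR2-BDC, anti-DEC205-BDC and PBS arrays. Summed signals of B cell markers were 227 to 261, 264 to 285 and 250 to 273 in these groups, of dendritic cell markers 311 to 331, 346 to 352 and 326 to 382, and of macrophage and monocyte markers 282 to 294, 330 to 343 and 341 to 342. Those of CD8 T cell markers were 393 to 510, 466 to 483 and 391 to 555, and those of NK cell markers 168 to 176, 197 to 226 and 395 to 434. Of the 5 NK cell markers, only *Klrd1* and *Prf1* fell after either antibody. Changes of the others, *Ncr1*, *Klrb1c* and *Klra8*, were -0.17, 0.16 and -0.0016 after anti-DCIR2-BDC. After anti-DEC205-BDC they were 0.12, -0.14 and 0.14, and none passed in either comparison. *Eomes*, on the CD8 T cell list, rose after either antibody, while *Cd8a*, *Cd8b1* and *Nkg7* of that list did not pass in either comparison. Changes of *Cd8a*, *Cd8b1* and *Nkg7* were -0.19, -0.08 and -0.47 after anti-DCIR2-BDC and 0.06, -0.66 and -0.55 after anti-DEC205-BDC. The array values carry no true zero, so no marker is at 0. Array medians lay between 5.43 and 5.56, and the part of these differences in the results above was not tested.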

How the data were processed

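The 6 Affymetrix arrays hold amplified RNA of sorted T cells, prepared per the labels' protocols with a PicoPure kit and from 5 ng of total RNA with the NuGen Ovation Pico system. The deposited values are log2 signals per probe set, for which the submitters' processing notes name RMA and Partek, with no version given in the sources used here. RMA gives all arrays the same distribution of signals before it summarises probes, which hides any shift common to all genes. The series' design text speaks of averaged values, but each deposited column is 1 array and was used as such.

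The table holds 35556 probe sets, of which 21789 have 1 gene symbol. Probe sets naming several genes, or none, were not tested, and for 999 genes with more than 1 probe set the one with the highest mean was used, which left 19938 genes. No detection calls were used and no dim genes were removed. Comparisons used limma 3.58.1 under R 4.3.3, fitted to all 6 arrays with a mean for each of the 3 groups, a variance trend and two-sided tests adjusted by Benjamini-Hochberg over all genes, at a threshold of 0.05. The fit was tested on simulated data. Each group's arrays are biological duplicates per the labels, with the number of mice behind an array unstated, and p-values measure only the variation among these 6 arrays. Precision is limited by the number of arrays, and 95% intervals of a log2 change had a median reach of 0.388 to either side.

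The 9 members and the gene lists were chosen with earlier results of these data known. Named were all members, up to 4 genes of each list with the largest absolute mean change against PBS (passing genes first), all reported *Bcat1* regulators and the 6 genes most like *Bcat1*. Outside that rule, *Lars*, *Lars2*, *Iars2*, *Vars2*, *Slc3a2*, *Sesn1*, *Sesn2* and *Sesn3* were chosen after their values were seen. So were the markers *Cd3e*, *Cd4*, *Cd5*, *Trat1*, *Klrd1*, *Prf1*, *Ncr1*, *Klrb1c*, *Klra8*, *Eomes*, *Cd8a*, *Cd8b1* and *Nkg7*. A few genes of the lists are not reported here. The 17 alternatives left out each array in turn, normalised or centred the arrays again, left out the dimmest 30% or 50% of genes, used every probe set or the lowest probe set per gene, changed the variance trend or array weights, fitted only the 4 arrays compared, or used the replicate number as a block. Promoter windows are from RefSeq (GRCm38.p6).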

Additional observations from a re-analysis of the deposited data

How the results depend on the processing

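*Bcat1* was chosen by its change against PBS, so its steady direction there over the 17 alternatives is a description and no support. Only leaving out an array of a compared group, quantile normalization and median centring altered its log2 changes. Its difference between the antibodies kept its sign and did not pass in any alternative. With 1 array left out, 0 to 2 of the 8 other members passed after anti-DCIR2-BDC and 0 to 1 after anti-DEC205-BDC, and with every probe set tested 0 passed after anti-DCIR2-BDC. Genes past the threshold numbered 2090 to 3637 for anti-DCIR2-BDC against PBS, 997 to 1367 for anti-DEC205-BDC against PBS, and 0 to 27 between the antibodies with 1 array left out, where 0 stands for the loss of either anti-DCIR2-BDC array (limma, 1559 and 1314 at an unadjusted p under 0.05). With every probe set tested, 694 passed for anti-DEC205-BDC against PBS and 0 between the antibodies (limma, 2688 at an unadjusted p under 0.05). Between the antibodies 7 genes passed without the dimmest 30% and 9 without the dimmest 50%, 0 with no variance trend (2185 at an unadjusted p under 0.05), and 2 with the replicate number as a block. Median centring moved the median of all genes after anti-DCIR2-BDC by 0.11 and made 67.1% of calls there higher, beside 56.3% as deposited, and 70.4% beside 60.1% after anti-DEC205-BDC. The anti-DEC205-BDC calls of *Myc* and *Vars* were lost with every probe set tested (limma adjusted p = 0.0613 and 0.0535).

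The following changes, none past the threshold in the fit reported, took either sign when 1 array was left out. Between the antibodies they ranged from -0.10 to 0.30 for *Bckdk*, from -0.25 to 0.016 for *Ivd* and from -0.36 to 0.13 for *Mccc2*. After anti-DCIR2-BDC the range was -0.38 to 0.12 for *Mccc2*, -1.35 to 0.0043 for *Pdk2*, -0.22 to 0.44 for *Hlcs*, -0.013 to 0.25 for *Mycn*, -0.33 to 0.22 for *Max* and -0.12 to 0.47 for *Iars2*. After anti-DEC205-BDC it was -0.14 to 0.16 for *Bcat2*, -0.19 to 0.059 for *Ivd*, -0.55 to 0.40 for *Mccc1*, -0.14 to 0.11 for *Mccc2*, -0.25 to 0.17 for *Acaa2*, -0.066 to 0.64 for *Dlat*, -1.20 to 0.16 for *Pdk2*, -0.21 to 0.45 for *Hlcs*, -0.070 to 0.33 for *Atf4*, -0.28 to 0.26 for *Lars2* and -0.44 to 0.15 for *Iars2*. Median centring gave 0.0036 for *Ivd*, 0.051 for *Mccc2*, 0.024 for *Acaa2* and 0.061 for *Lars2* after anti-DEC205-BDC and 0.049 for *Max* after anti-DCIR2-BDC, and quantile normalization gave 0.061 for *Mccc2* and 0.052 for *Lars2* after anti-DEC205-BDC. The cause was not tested. *Mccc2*, *Mycn*, *Pcx* and *Sesn2* have no value without the dimmest 50% of genes. The labels do not say that equal replicate numbers share an animal, litter or day, so they were not taken as pairs. Their deviations from the group means correlated at 0.145, 0.131 and 0.0714. With the replicate block 2 of the 8 members passed after anti-DCIR2-BDC and 0 after anti-DEC205-BDC. Of all genes 3885 and 2069 passed in these comparisons with the block, beside 3568 and 1763 without it.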
